A study of Rattus norvegicus with 16 samples.

Results

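Dorsal root ganglia (DRGs) collected 14 days after tumor cell implantation (TCI) were compared with DRGs collected 7 days after it. The comparison took all 4 samples labelled TCI day 14 and samples 1, 2 and 4 of TCI day 7, which made 7 of the 16 samples of the series. Sample 3 of day 7 was rich in skeletal muscle RNA and is shown apart. Its mean log2(FPKM + 1) over 30 muscle markers was 8.38, against 1.02 to 1.14 in the other day 7 samples and 1.01 to 1.26 in the day 14 samples. The question was which of the responses present on day 7 persisted on day 14, which faded and which appeared late.

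The animals were adult female Sprague-Dawley rats. Walker 256 rat mammary gland carcinoma cells were injected into the left tibia in the TCI groups, a model of bone cancer pain in which the tumor grows in the marrow of 1 bone while the ganglia that supply the limb are sampled. Sham rats had the same operation without living tumor cells: the labels name PBS and the study's methods name boiled cells. The L3–L5 DRGs of the operated side of 1 rat were pooled as 1 sample. Sham DRGs were collected on day 14 only, so at day 7 the days since surgery and the tumor cannot be told apart in a comparison with sham. Nor can recovery from surgery and the course of the tumor be told apart between day 7 and day 14. No strain, allele or drug differed between day 7 and day 14, and the labels give no batch.

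A DRG holds the cell bodies of sensory neurons, each wrapped by satellite glia, together with Schwann cells, resident macrophages, vessels and a fibroblast capsule that continues into the meninges. Macrophages and lymphocytes enter the ganglion after injury or inflammation, and interferons then induce antiviral genes, guanylate-binding GTPases and the machinery that presents antigen on MHC molecules. Neutrophils and acute phase proteins mark the early, innate phase of such a response, and matrix proteins and contractile genes mark fibroblast and vessel remodelling. In bulk tissue, fewer cells of a type and less RNA per cell cannot be told apart.

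Values are FPKM (sequenced fragments corrected for transcript length and library size), a level per transcript length, and differences are on the log2(FPKM + 1) scale, which understates the change of low genes. Of 21021 genes listed, 14023 reached 1 FPKM in at least 3 of the 14 samples fitted and were tested with limma. The markers of the tissue were present on both days: the mean level of 28 pan-neuronal genes ranged from 7.49 to 7.53 on day 7 and from 7.49 to 7.64 on day 14, and that of 23 myelin and Schwann cell genes from 6.69 to 6.95 and from 6.61 to 7.16. Genes at 1 FPKM or more numbered 13534 to 13805 per sample on day 7 and 13301 to 13700 on day 14. Each sample was 1 rat, and the FPKM tables carry no read depth. The p-values rest on 1 spread per gene pooled over the 14 samples fitted, sham and day 1 included, and not on day 7 and day 14 alone.

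Day 14 sample 2 stood apart from the other day 14 samples. Its mean level was 5.72 over 13 MHC class II pathway genes, against 4.60 to 4.64 in day 14 samples 1, 3 and 4. Over 37 type I interferon-stimulated genes it was 4.8 against 3.12 to 3.38, and over 15 cytotoxic lymphocyte genes it was 2.71 against 1.54 to 1.62. It was singled out after its values were seen. Sample 3 was the lowest of day 14 in matrix genes (3.24 against 3.83 to 3.94) and in meninges and fibroblast markers (3.54 against 4.11 to 4.22). Counts and medians that move with these samples are given with and without them.

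At the cut-offs of the study, a log2 difference of at least 1 with an adjusted p of at most 0.001, 2 genes fell from day 7 to day 14 (0.0143% of those tested) and 0 rose (0%). Here the cut-offs were applied to limma differences of log2(FPKM + 1). The study applied them to fold changes from other software and reported many more genes, so its counts and these are unlike measures. At an adjusted p of at most 0.05 and any size, 13 genes fell (0.0927%) and 1 rose (0.00713%). Leaving out day 14 sample 2 changed these counts to 178 (1.28% of 13945 genes tested) and 11 (0.0789%), and leaving out sample 3 changed them to 5 (0.0357% of 13993) and 1 (0.00715%). An unadjusted p under 0.05 was met by 983 genes with a lower level on day 14 (7.01%) and by 413 with a higher one (2.95%), a share of 70.4% lower. That share was 42.4% after quantile normalization and 43.7% after median centring, so the excess of lower genes among the unadjusted results turned with the scaling. Lower genes at an unadjusted p under 0.05 were 10.1% of those tested without sample 2 and 6.5% without sample 3. The median difference over all genes tested was −0.02.

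**Figure D1:**
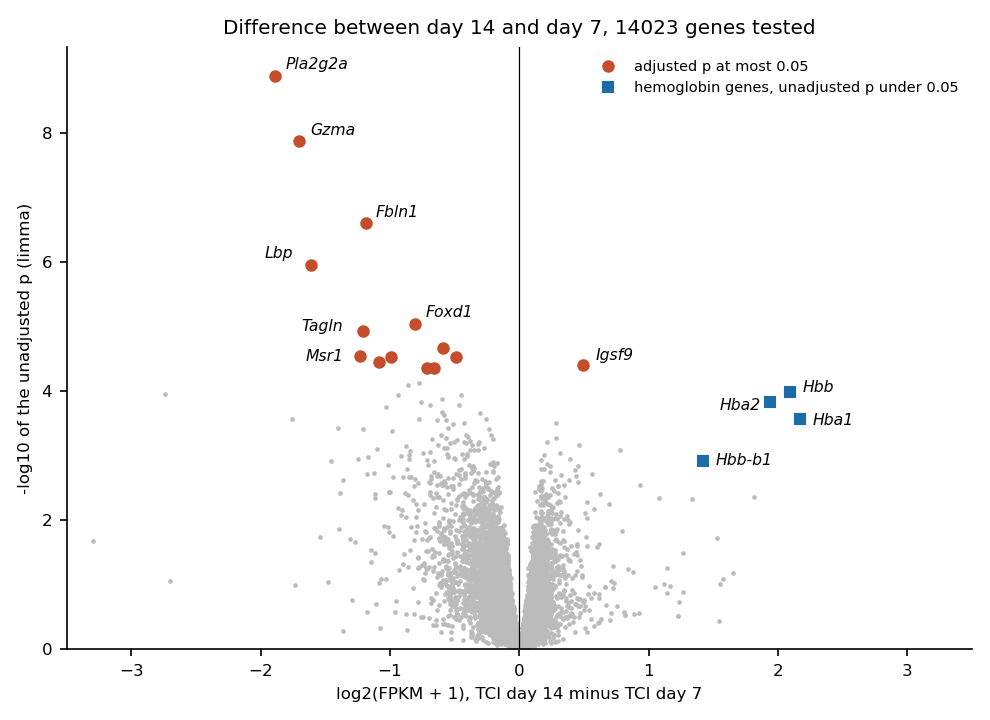
Difference between day 14 and day 7 for each of 14023 genes (x axis, log2(FPKM + 1)) against the −log10 of the unadjusted limma p (y axis). The 14 genes at an adjusted p of at most 0.05 are orange circles, of which 13 lie to the left (lower on day 14) and Igsf9 alone to the right, and 4 hemoglobin genes are blue squares at differences of 1.42 to 2.17.

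Pla2g2a, which encodes a secreted phospholipase A2 of the acute phase response, had the smallest p. It passed the filter of 1 FPKM only through the day 7 samples, so its lack of overlap adds no support. Its FPKM was 4.05, 5.65 and 4.04 in day 7 samples 1, 2 and 4, and 0.43, 0.79, 0.48 and 0.31 in day 14 samples 1 to 4. All day 14 samples lay far below all day 7 samples, and the sham samples lay between 0 and 0.15. The log2 difference was −1.89 ± 0.12 (SE, adjusted p = 1.84e-05), and the day 14 mean was 11.0% of the day 7 mean. Against sham the difference was 2.34 on day 7 and 0.45 on day 14, both past the test (adjusted p = 1.31e-06 and 0.0203), and the muscle-rich day 7 sample 3 read 1.92.

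Gzma encodes granzyme A, a serine protease stored in the granules of cytotoxic lymphocytes. It read 2.66, 3.49 and 3.02 FPKM on day 7 and 0, 0.59, 0.16 and 0.30 on day 14. The groups did not overlap, but Gzma too passed the filter of 1 FPKM only through the day 7 samples, so that adds no support. Day 14 sample 2, with the highest lymphocyte gene levels of its group, was the one at 0.59. The log2 difference was −1.70 ± 0.14 (adjusted p = 9.41e-05). On day 7 the gene was 2.0 above sham (adjusted p = 6.63e-06), and on day 14 it was 0.30 above sham, which did not pass (adjusted p = 0.131). The muscle-rich day 7 sample 3 read 4.02, above the other day 7 samples.

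The bases before the start of Pla2g2a and Gzma are shown because these 2 genes passed the study's cut-offs. Both come from RefSeq (GRCr8) and run over the 250 bases before the annotated start, chr5:156359475-156359724 on the plus strand for Pla2g2a and chr2:46485697-46485946 on the minus strand for Gzma. Capitals mark a match, on either strand, to the core of the interferon-stimulated response element (ISRE), taken as TTTC, any 2 bases and TTTC.
Pla2g2a: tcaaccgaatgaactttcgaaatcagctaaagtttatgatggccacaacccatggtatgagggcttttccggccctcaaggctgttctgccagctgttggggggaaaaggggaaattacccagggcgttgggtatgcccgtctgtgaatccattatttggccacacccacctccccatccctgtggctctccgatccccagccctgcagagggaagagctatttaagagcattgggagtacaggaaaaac
Gzma: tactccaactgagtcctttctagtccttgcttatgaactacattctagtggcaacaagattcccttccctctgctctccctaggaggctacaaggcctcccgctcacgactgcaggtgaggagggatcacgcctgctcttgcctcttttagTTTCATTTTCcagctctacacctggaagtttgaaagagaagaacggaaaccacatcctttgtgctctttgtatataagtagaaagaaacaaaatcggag
The Gzma window held 1 such match, 99 to 90 bases before the start, and the Pla2g2a window held none. Over windows of 300 bases (250 before to 50 after the start) the letters occurred in 2.96% of the 10951 tested genes with a window in the table and in 3.77% of all 27457 windows.

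Fbln1 from the matrix list, Tagln from the endothelial and mural list and Foxc1 from the meninges list were also called. Fbln1 encodes fibulin-1, a matrix glycoprotein, and read 32.4, 31.5 and 31.7 FPKM on day 7 and 15.2, 12.7, 11.9 and 14.1 on day 14. Its day 7 samples were almost equal, and the highest day 14 sample reached less than the lowest of them (log2 difference −1.19 ± 0.12, adjusted p = 0.00116). Tagln, the actin-binding protein transgelin of smooth muscle and activated fibroblasts, read 21.6, 37.6 and 41.4 on day 7 and 13.1, 14.2, 11.8 and 14.9 on day 14 (−1.21 ± 0.18, adjusted p = 0.0276). Foxc1, a forkhead factor needed for the meninges, fell less, from 5.48, 5.73 and 5.27 to 4.08, 3.56, 3.21 and 3.73 (−0.49 ± 0.08, adjusted p = 0.0422).

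Fbln1 and Foxc1 were still above sham on day 14, by 0.85 and 0.76 (adjusted p = 0.000691 and 0.000119), whereas the difference for Tagln, 0.38, did not pass (adjusted p = 0.131). The muscle-rich day 7 sample 3 had 14.7 FPKM of Fbln1, at the day 14 level, and 20.3 of Tagln. Foxd1, Igfbp6 and Lsr were also called, stand outside the naming rule and were chosen after their values were seen. Foxd1, another forkhead factor, fell by 0.81 on the log2 scale (adjusted p = 0.0254). Igfbp6, an inhibitor of insulin-like growth factor 2, fell by 0.71 from a high level, 268 to 326 FPKM on day 7 to 163 to 216 on day 14 (adjusted p = 0.0441). Lsr, the lipolysis-stimulated lipoprotein receptor of tricellular junctions, fell by 0.59 (adjusted p = 0.0422). In all 3 the groups did not overlap, as in 4.24% of all genes with a lower level. The muscle-rich day 7 sample 3 read 1.45 FPKM for Foxd1, below every day 14 sample. It read 3.64 for Lsr and 206 for Igfbp6, within the day 14 ranges.

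Lbp of the acute phase list, Msr1 of the macrophage list, Csf3r of the neutrophil list and the unlisted F13a1 and Enpp3 complete the genes that fell. Lbp, the lipopolysaccharide-binding protein that hands endotoxin to CD14, read 4.83, 3.82 and 8.27 FPKM on day 7 and 1.45, 1.16, 0.74 and 1.07 on day 14. The day 14 mean was 19.6% of the day 7 mean (−1.61 ± 0.19, adjusted p = 0.00387). Msr1, a macrophage scavenger receptor, read 6.61, 7.05 and 4.71 on day 7 and 2.08, 3.37, 1.11 and 1.85 on day 14, with no overlap although day 14 sample 2 was again the highest of its group (−1.23 ± 0.20, adjusted p = 0.0422). Csf3r, the receptor for granulocyte colony-stimulating factor on neutrophils, read 1.84, 1.85 and 2.25 on day 7 and 0.75, 1.31, 0.71 and 0.80 on day 14 (−0.66 ± 0.11, adjusted p = 0.0441).

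F13a1, the A chain of coagulation factor XIII carried by macrophages and platelets, read 1.88, 2.72 and 4.02 on day 7 and 1.16, 0.55, 0.53 and 0.97 on day 14 (−1.08 ± 0.18, adjusted p = 0.0441). Enpp3, an ectonucleotidase, read 9.53, 6.63 and 6.70 on day 7 and 3.46, 2.91, 2.36 and 4.69 on day 14 (−1.0 ± 0.16, adjusted p = 0.0422). On day 14 the differences from sham were 0.05 for F13a1 and 0.12 for Enpp3 (adjusted p = 0.878 and 0.619). Calls near the threshold depended on the settings: Pla2g2a kept its call in 13 of 13 alternatives that tested it, Gzma in 12 of 13, Fbln1 in 16 of 17 and Lbp in 14 of 16, while each of the other 10 kept it in 4 to 8 of 16 or 17. Pla2g2a and Gzma passed the filter of 1 FPKM only through the day 7 samples. They were not tested when any 1 day 7 sample was left out, so whether their calls rest on a single day 7 sample was not tested.

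**Figure D2:**
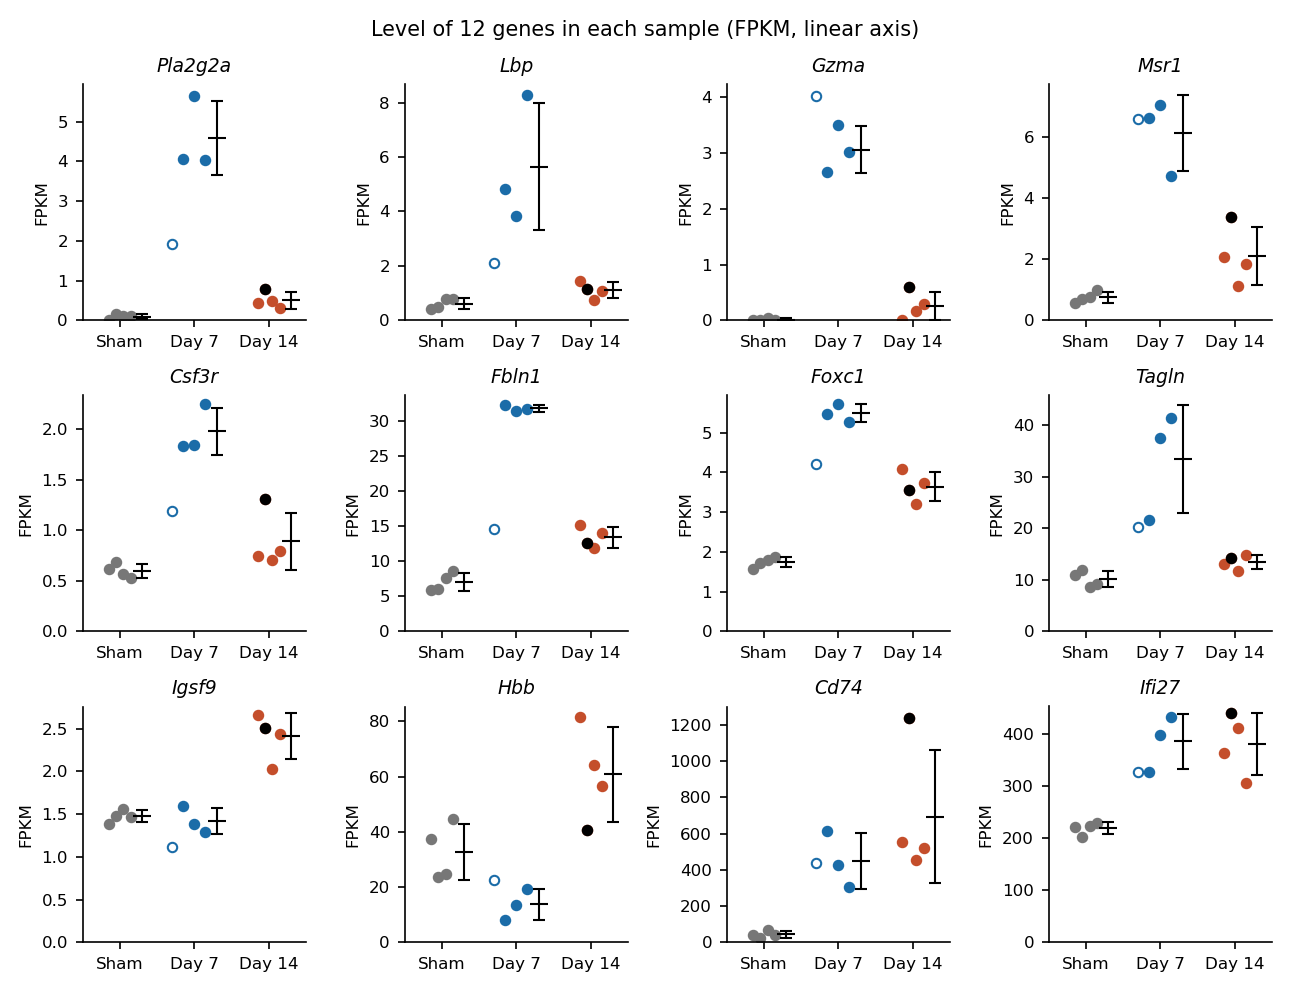
FPKM (y axis, linear, from 0) of 12 genes in each sham, TCI day 7 and TCI day 14 sample; the black bar beside each group is its mean with 1 SD (n = 4, 3 and 4), the open circle is day 7 sample 3, left out of the mean, and the black dot is day 14 sample 2. In the first 8 panels every day 14 sample lies below day 7 samples 1, 2 and 4, in Igsf9 and Hbb every day 14 sample lies above them, and in Cd74 and Ifi27 the days overlap.

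Other genes had differences of a like or larger size that did not pass. Slpi, a secreted inhibitor of neutrophil proteases, read 16.4, 12.7 and 10.8 FPKM on day 7 and 0.19, 1.17, 0.32 and 4.89 on day 14, where sample 4 was the highest (−2.74 ± 0.50, adjusted p = 0.0812). Slc6a20, an imino acid transporter, read 17.4, 20.1 and 16.3 and then 7.25, 6.55, 7.92 and 9.76, all above the sham samples at 2.27 to 6.2 (−1.10 ± 0.25, adjusted p = 0.162). Upp1, uridine phosphorylase, read 6.16, 8.46 and 6.63 and then 3.21, 4.41, 2.26 and 2.24 (−1.03 ± 0.20, adjusted p = 0.0973). Both Slc6a20 and Upp1 remained above sham on day 14, by 1.11 and 0.87 (adjusted p = 0.00768 for each). Inmt, a methyltransferase of small amines, was at 3.66 to 11.98 on day 7 and 1.29 to 2.45 on day 14, and Stab1, a scavenger receptor of perivascular macrophages and sinusoidal vessels, at 5.85 to 7.69 and 1.74 to 4.33 (adjusted p = 0.132 and 0.137). These 5 were named by a rule that took only genes whose days did not overlap, so that trait adds no support. Of all genes tested, 4.24% were lower without overlap.

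Igsf9, an immunoglobulin superfamily adhesion molecule of neurons, was the single gene that rose. It read 1.59, 1.39 and 1.29 FPKM on day 7 and 2.66, 2.51, 2.03 and 2.44 on day 14, with sham at 1.39 to 1.56. The groups did not overlap, and day 7 sample 3 was at 1.11. The log2 difference was 0.49 ± 0.08 (adjusted p = 0.0441). Against sham the difference was −0.03 on day 7, which did not pass, and the gene was above sham on day 14 (0.46, adjusted p = 0.0020).

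Beyond single genes, 47 lists of genes were followed, and each is given by its counts and its median. The values over all genes tested, to be read beside every list, are 7.01% lower and 2.95% higher at an unadjusted p under 0.05 and a median of −0.02, and without day 14 sample 2 they are 10.1% lower and a median of −0.02. Without sample 3 they are 6.5% lower and a median of −0.01. At an adjusted p of 0.05, 1.28% were lower without sample 2 and 0.0357% without sample 3. Against sham, 3.45% of all genes tested were lower on day 7 and 3.21% on day 14 at that cut-off, and 14.5% and 11.9% were higher. A gene near 1 FPKM enters the test through the group where it is high, so the counts describe the members tested and not whole lists. Leaving out day 14 sample 2 also dropped low members of some lists from the test, which favours members high on day 7. Where fewer members were tested, the medians with and without it cover different genes. The day 7 and day 14 differences from sham share their sham samples, and each shares its TCI samples with the difference between the days, so they are set side by side and are not independent measurements. Quantile normalization and median centring moved the list medians by little, and changed the sign only of medians near 0, those of type I interferon-stimulated genes (−0.01 to 0.02 and 0.03), dendritic cell genes (−0.02 to 0.05 and 0.02) and, in 1 or both of the 2 scalings, of the nociceptor, respiratory chain, cholesterol, hypoxia and epithelial lists.

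Of 34 macrophage genes tested, 33 differences were below 0 (57.8% of all genes were). In this list 1 passed an adjusted p of 0.05 (Msr1), 13 had an unadjusted p under 0.05 with a lower level and 0 with a higher one, and the median difference was −0.53. On day 7, 33 of the 34 were above sham at an adjusted p of at most 0.05 (14.5% of all genes tested were), and on day 14, 30 were (11.9% of all genes), at medians of 2.14 and 1.46. Most members were therefore above sham on both days, with a lower median on day 14. Gpnmb, a glycoprotein of lipid-laden macrophages, read 40.6, 33.2 and 21.8 FPKM on day 7 and 14.7, 25.3, 9.69 and 9.42 on day 14, where sample 2 overlapped day 7 (−1.12 ± 0.29, adjusted p = 0.205). Cd14, the endotoxin co-receptor, read 7.51, 8.95 and 5.75 on day 7 and 3.08, 6.85, 1.99 and 2.30 on day 14 (−0.98 ± 0.26, adjusted p = 0.215). Lyve1, a hyaluronan receptor of resident and perivascular macrophages and lymphatic vessels, was at 3.07 to 3.70 on day 7 and 0.85 to 2.69 on day 14, with a sham mean of 1.5 (−0.87 ± 0.20, adjusted p = 0.155).

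Lyz2, a lysozyme gene abundant in macrophages, was at 550.5 to 780.4 FPKM on day 7 and at 408, 1185, 361 and 319 on day 14. Sample 2 was the highest of both days there and the other day 14 samples were below every day 7 sample (−0.43 ± 0.38, adjusted p = 0.765). When day 14 sample 2 was left out, 10 of the 34 macrophage genes passed an adjusted p of 0.05 with a lower level (1.28% of all genes did), and the median was −0.85. Without sample 3 instead, 0 passed and 9 had an unadjusted p under 0.05 with a lower level, at a median of −0.33, so the call of Msr1 was lost. In the fit without sample 2, Cd14 differed by −1.28 ± 0.14 (adjusted p = 0.00117) and Gpnmb by −1.40 ± 0.22 (adjusted p = 0.00969).

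Of 26 cytotoxic lymphocyte genes listed 15 were tested. Gzma passed, 8 had an unadjusted p under 0.05 with a lower level, and 15 of 15 differences were below 0, as were 57.8% of all genes tested. The median difference was −0.49, and the medians above sham were 1.93 on day 7 and 1.09 on day 14, with 15 and 13 members above sham. Gzmk, granzyme K, read 4.24, 9.35 and 3.61 FPKM on day 7 and 1.51, 3.88, 0.95 and 1.07 on day 14, so that sample 2 overlapped (−1.25 ± 0.30, adjusted p = 0.175). Gzmm, granzyme M of natural killer cells, was at 3.96 to 8.91 on day 7 and 2.35 to 4.15 on day 14 (adjusted p = 0.215). Ctsw, a cathepsin of cytotoxic cells, was at 5.44 to 14.4 and 3.58 to 7.02 (adjusted p = 0.248). Without day 14 sample 2, 7 of the 11 members still tested passed with a lower level, against 1.28% of all genes, at a median of −1.02. The filter then dropped low members and favoured those high on day 7, so this count and median cannot be set against those of the 15. Without sample 3, 1 of 15 passed and 7 had a lower level at an unadjusted p under 0.05, at a median of −0.39.

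Of 24 T cell receptor and lineage genes tested, 0 passed in either direction and 2 had an unadjusted p under 0.05, both subunits of the CD8 co-receptor. Cd8b read 2.5, 4.13 and 1.04 FPKM on day 7 and 0.81, 1.20, 0.62 and 0.76 on day 14 (−0.86 ± 0.22, adjusted p = 0.215). Cd8a was at 5.03 to 13.7 on day 7 and 4.17, 11.2, 4.38 and 3.02 on day 14 (−0.78 ± 0.34, adjusted p = 0.458). Cd4, the co-receptor of helper T cells that rat macrophages also carry, was at 18.1 to 27.4 on day 7 and 14.6 to 39.0 on day 14 (0.06 ± 0.26, adjusted p = 0.955). The list median was −0.42, and 21 members on day 7 and 19 on day 14 were above sham. With sample 2 left out, 2 of 21 tested passed with a lower level and 15 had an unadjusted p under 0.05, at a median of −0.66. Il2rg, the gamma chain shared by several interleukin receptors, was 1 of those that passed and differed by −0.94 ± 0.18 (adjusted p = 0.0291). With sample 3 left out, 0 of 24 passed and 2 had an unadjusted p under 0.05, at a median of −0.30. The difference between Cd8 and Cd4 genes was not tested.

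Neutrophils are short-lived first responders, and 4 of their 19 listed genes were high enough to be tested. The filter on low values favours members that were high on day 7, such as Csf3r and S100a9, which reached 1 FPKM in every day 7 sample, in 1 day 14 sample and in 0 sham samples, so no count or median over the 4 is read here. S100a9, a calcium-binding alarmin that fills neutrophils, read 2.11, 2.59 and 10.1 FPKM on day 7 and 1.13, 0.14, 0.67 and 0.16 on day 14 (−1.76 ± 0.36, adjusted p = 0.115). Fcnb, ficolin-B of granulocytes, was at 3.25 to 8.04 on day 7 and at 1.46, 6.16, 1.00 and 3.14 on day 14 (adjusted p = 0.375), and was the member still above sham on day 14 (1.63, adjusted p = 0.0065).

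Lcn2, lipocalin-2, which binds bacterial iron carriers, is listed with neutrophil and acute phase genes. It read 4.43, 5.52 and 10.95 FPKM on day 7 and 2.61, 4.13, 2.59 and 4.01 on day 14, so the days did not overlap and day 14 lay below the sham mean of 4.52 (−0.81 ± 0.22, adjusted p = 0.231). Its window on the minus strand at chr3:36081781-36082030 (GRCr8) is shown because several acute phase genes are known targets of C/EBP factors, and capitals mark a match to TTGCNNAA on either strand, a C/EBP-type core.
Lcn2: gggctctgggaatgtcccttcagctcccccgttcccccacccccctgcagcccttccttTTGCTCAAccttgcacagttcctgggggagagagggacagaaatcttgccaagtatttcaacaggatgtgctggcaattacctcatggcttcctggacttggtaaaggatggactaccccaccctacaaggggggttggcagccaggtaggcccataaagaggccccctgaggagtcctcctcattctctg
The match lies 191 to 184 bases before the start. These letters occurred in 4 of 14 windows of tested acute phase and phospholipase genes (28.6%) and in 2 of 4 of neutrophil genes, against 8.39% of all tested genes with a window. Of these 14 and 4 windows 0 held the ISRE letters.

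The acute phase and phospholipase list as a whole had 18 tested members, of which Pla2g2a and Lbp passed, 7 had a lower and 1 a higher level at an unadjusted p under 0.05, and the median difference was −0.45. Members above sham numbered 12 on day 7 and 6 on day 14. Without day 14 sample 2, 5 passed with a lower and 1 with a higher level. Without sample 3, 2 passed with a lower level, at a median of −0.32. Timp1, an inhibitor of matrix metalloproteinases, was at 88.5, 89.4 and 96.8 FPKM on day 7 and 60.4, 66.5, 41.2 and 60.1 on day 14 (−0.69 ± 0.13, adjusted p = 0.0934). The member with the higher level was Pla2g2d, a phospholipase A2 of dendritic cells and lymphoid tissue and a close relative of Pla2g2a. It read 2.81, 1.62 and 3.31 on day 7 and 5.83, 23.4, 4.83 and 5.28 on day 14, so the 2 paralogs had opposite signs (1.33 ± 0.39, adjusted p = 0.255). With sample 2, which held the high value, left out, the difference for Pla2g2d was 0.85 ± 0.17 and passed (adjusted p = 0.0341).

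Complement genes had 26 tested members, 0 of which passed and 8 of which had a lower level at an unadjusted p under 0.05, at a median of −0.28. Cfb, factor B of the alternative pathway, read 13.0, 25.4 and 22.1 FPKM on day 7 and 6.30, 17.7, 3.96 and 4.92 on day 14 (−1.36 ± 0.36, adjusted p = 0.219). C6, a component of the membrane attack complex, was low and did not overlap, at 1.41 to 2.55 on day 7 and 0.50 to 1.07 on day 14 (−0.76 ± 0.14, adjusted p = 0.0911). Serping1, the C1 inhibitor, remained far above sham on both days, at 185 to 189 and 79.9 to 245 against 30.2. Of the 26, 5 passed with a lower level without day 14 sample 2 (1.28% of all genes did), at a median of −0.68, Cfb among them (−1.77 ± 0.22, adjusted p = 0.00223). Without sample 3, 0 passed and 7 had a lower level at an unadjusted p under 0.05, at a median of −0.15.

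The medians of the matrix and fibroblast lists moved with day 14 sample 3. Of 38 matrix and matrix-remodelling genes tested, Fbln1 passed, 10 had a lower and 0 a higher level at an unadjusted p under 0.05, and 7 did not overlap between the days with a lower level, as did 4.24% of all genes. The median difference was −0.41. Of the 38, 18 on day 7 and 6 on day 14 were above sham, against 14.5% and 11.9% of all genes, so the day 14 count was near that share. The median was −0.19 without sample 3, where 1 passed and 10 had a lower level at an unadjusted p under 0.05, and −0.35 without sample 2, where 3 passed. Ogn, osteoglycin, read 34.1, 37.2 and 28.6 FPKM on day 7 and 26.0, 20.2, 17.8 and 25.7 on day 14 (−0.56 ± 0.13, adjusted p = 0.162). Dcn, decorin, a small proteoglycan that binds collagen, was at 456 to 593 on day 7 and at 452, 294, 157 and 360 on day 14, with sample 3 lowest (−0.79 ± 0.27, adjusted p = 0.345). Adamts1, a secreted protease, was at 6.12 to 7.85 and 2.73 to 5.14 (adjusted p = 0.151).

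All 13 meninges and fibroblast markers had differences below 0, with a median of −0.42, and Foxc1 was the member that passed. Collagen chains had 33 tested members, 4 with a lower level at an unadjusted p under 0.05 and none past the adjustment, at a median of −0.21. Among 15 endothelial and mural markers Tagln passed and 5 were lower at an unadjusted p under 0.05. Cdh5, the cadherin of endothelial junctions, was at 8.72 to 14.0 FPKM on day 7 and 5.22 to 10.4 on day 14 (−0.59 ± 0.19, adjusted p = 0.32). Leaving out day 14 sample 3 moved the medians to −0.28 for the meninges and fibroblast markers, −0.05 for collagen chains and −0.07 for endothelial and mural markers, and 0 members of the 3 lists passed, so that the calls of Foxc1 and Tagln were lost.

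Antigen presentation genes were above sham on both days, at nearly the same medians when day 14 sample 2 was kept. Of 13 MHC class II pathway genes tested, 0 passed in either direction, 10 differences were above 0 (42.2% of all genes were), and the median difference was 0.46. The medians above sham were 2.67 on day 7 and 2.69 on day 14, with 12 of 13 members above sham on each day. Cd74, the invariant chain that guides class II molecules, read 615, 428 and 307 FPKM on day 7 and 556, 1241, 454 and 523 on day 14, against a sham mean of 44.9. The days overlapped and sample 2 was the highest (0.56 ± 0.37, adjusted p = 0.665). RT1-Da, a class II alpha chain of the rat, read 246, 149 and 108 on day 7 and 199, 399, 163 and 190 on day 14 (0.49 ± 0.35, adjusted p = 0.693).

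With day 14 sample 2 left out the class II median was 0.21 between the days and 2.47 above sham, and 12 of 13 members remained above sham. With sample 3 left out instead, the median between the days was 0.55 and 0 passed. RT1-DOa, a chain of the DO molecule that tunes peptide loading, was the 1 member higher at an unadjusted p under 0.05, at 1.43, 3.87 and 1.14 on day 7 and 4.09, 7.12, 2.51 and 3.64 on day 14 (0.79 ± 0.28, adjusted p = 0.357). Ifi30, a lysosomal thiol reductase that prepares antigen, had the opposite sign, at 22.2 to 41.3 and 15.6 to 38.7 (−0.48 ± 0.25, adjusted p = 0.544), and passed with a lower level without sample 2 (−0.75 ± 0.16, adjusted p = 0.0437). Rat RT1 genes are near-identical, so reads shared between them may be divided in ways that FPKM does not show.

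MHC class I and antigen processing genes had 27 tested members, 0 past the test or under an unadjusted p of 0.05 in either direction, a median difference of 0.12, and 24 members above sham on each day. The median was −0.04 with all 16 samples and −0.17 without day 14 sample 2, where 2 members passed with a lower level. Without sample 3 the median was 0.22, with 3 of 27 differences below 0 and 0 passing. B2m, the light chain shared by class I molecules, was at 676, 700 and 669 FPKM on day 7 and 741, 1320, 769 and 615 on day 14 (0.27 ± 0.22, adjusted p = 0.738). RT1-A2, a class I heavy chain, was at 219 to 376 and 222 to 465 (0.18 ± 0.29, adjusted p = 0.877). Both days lay above the sham means of 197 and 42.4.

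The interferon lists gave no call with all samples or without day 14 sample 3, and calls without sample 2. Among 37 type I interferon-stimulated genes tested, 0 had an unadjusted p under 0.05, the median difference was −0.01, and 31 were above sham on each day, at medians of 1.19 and 1.24. Ifi27, a small mitochondrial protein induced by interferon, read 328, 398 and 432 FPKM on day 7 and 363, 441, 412 and 307 on day 14 with a difference of −0.02 ± 0.13. Ifitm3, a membrane protein that blocks virus entry, read 131, 126 and 129 on day 7 but 64.9, 177, 75.8 and 65.8 on day 14, so that 3 samples lay below day 7 and sample 2 above it (−0.55 ± 0.26, adjusted p = 0.51). Without sample 2 it differed by −0.89 ± 0.10 (adjusted p = 0.00117), 3 of 36 tested genes of the list passed with a lower level and 22 had an unadjusted p under 0.05, and the list median was −0.38 between the days and 0.89 above sham, with 31 members still above sham. Without sample 3, 0 of 37 had an unadjusted p under 0.05, 13 differences were below 0 and the list median was 0.05.

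The 23 interferon-gamma GTPases and response factors tested gave the same count of 0 at an unadjusted p under 0.05, with a median of −0.14, and 20 members on day 7 and 18 on day 14 were above sham. Gbp2, a guanylate-binding GTPase that attacks intracellular pathogens, read 66.2, 67.4 and 60.6 FPKM on day 7 and 33.7, 201, 34.5 and 30.3 on day 14. Sample 2 was above every day 7 sample and the other 3 were below every one, and the difference did not pass (−0.31 ± 0.49, adjusted p = 0.875). Leaving out sample 2, 10 of the 23 genes passed with a lower level (1.28% of all genes did) at a median of −0.70, Gbp2 by −0.96 ± 0.11 (adjusted p = 0.00135), and 19 of 23 remained above sham. Leaving out sample 3 instead, 0 passed, 9 of 23 differences were below 0 and the median was 0.07. The sign of the list median thus turned with the sample left out. The muscle-rich day 7 sample 3 was high here too, with 198 FPKM of Gbp2 and a list mean of 4.82 against 3.57 to 3.75 in the other day 7 samples.

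The windows of Gbp2 and RT1-Da are shown as examples from the interferon and class II lists. They lie on the plus strand at chr2:234005477-234005726 and chr20:4515165-4515414 (GRCr8). Capitals mark the ISRE core in Gbp2 and, in RT1-Da, CTGATTGG, the Y box (an inverted CCAAT box) known from class II promoters; both were searched on either strand.
Gbp2: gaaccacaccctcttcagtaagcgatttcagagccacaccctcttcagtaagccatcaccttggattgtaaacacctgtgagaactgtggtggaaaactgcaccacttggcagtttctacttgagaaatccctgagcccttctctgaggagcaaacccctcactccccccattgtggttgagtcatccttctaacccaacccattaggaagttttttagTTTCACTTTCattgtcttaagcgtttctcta
RT1-Da: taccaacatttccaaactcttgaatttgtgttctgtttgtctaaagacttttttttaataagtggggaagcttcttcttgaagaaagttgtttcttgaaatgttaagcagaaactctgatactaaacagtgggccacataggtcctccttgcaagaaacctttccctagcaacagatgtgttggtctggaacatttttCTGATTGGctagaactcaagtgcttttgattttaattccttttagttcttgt
The ISRE letters lay 31 to 22 bases before the Gbp2 start and the Y box 52 to 45 bases before that of RT1-Da. ISRE letters occurred in 17 of 25 windows of tested type I interferon-stimulated genes (68%) and in 10 of 20 of the interferon-gamma list. The Y box occurred in 6 of 11 windows of the class II list (54.5%), against 4.96% of tested genes with a window. The matches shown do not overlap, and they describe letters, not binding.

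**Figure D3:**
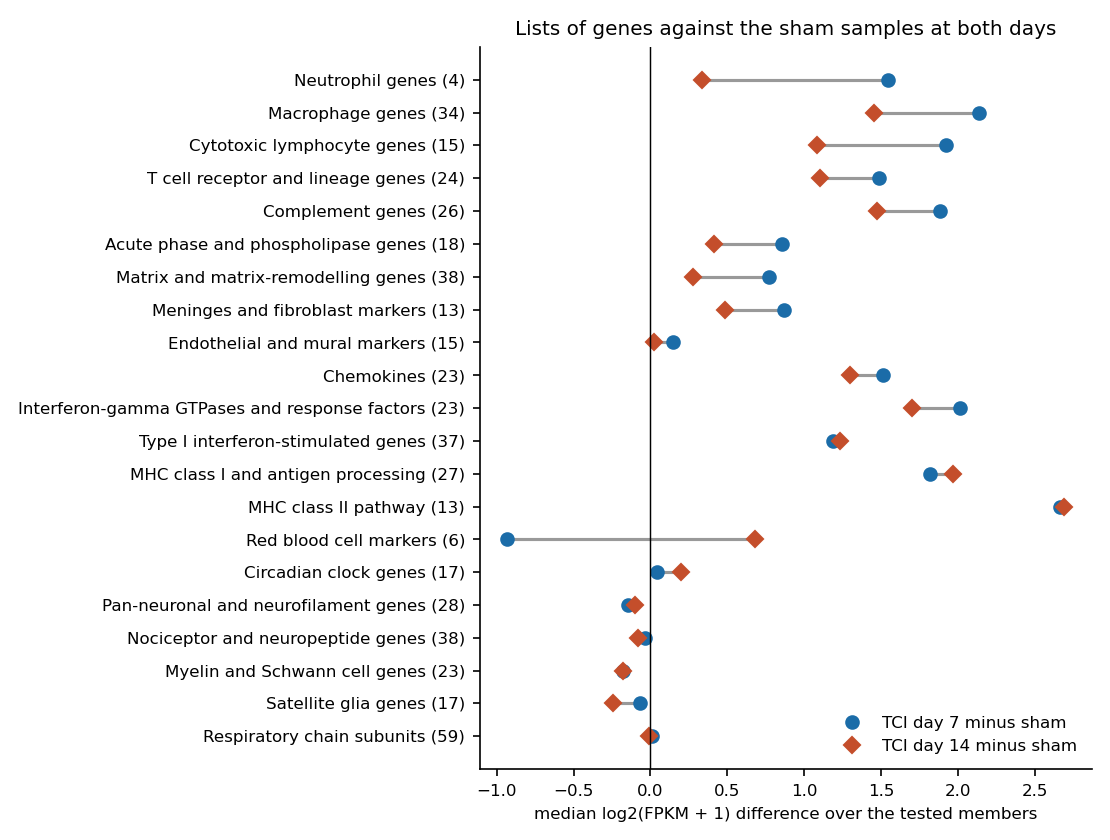
Median log2(FPKM + 1) difference from sham (x axis) over the tested members (number in parentheses) of 21 gene lists, on TCI day 7 (blue circles) and TCI day 14 (orange diamonds); both use the same sham samples. Macrophage, cytotoxic and matrix lists lie further left on day 14, MHC and type I interferon lists lie at nearly the same place on both days, and the red blood cell markers cross 0.

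Of 23 chemokines tested 0 passed and 3 were lower at an unadjusted p under 0.05, with a median of −0.24, and 14 on day 7 and 12 on day 14 were above sham. Without day 14 sample 2, 2 of 22 chemokines and 2 of 9 chemokine receptors passed with a lower level, at medians of −0.48 and −0.60. Without sample 3, 0 of either list passed, at medians of −0.14 and −0.25. Ccl5, a chemoattractant of T cells, was at 63.4, 107 and 35.8 FPKM on day 7 and 34.9, 115, 32.0 and 33.1 on day 14, against 1.2 in sham (−0.45 ± 0.43, adjusted p = 0.792). Ccl21, which draws CCR7-bearing cells to lymphatic vessels, did not overlap, at 1.65 to 2.20 and 0.20 to 0.87 (adjusted p = 0.289). Ccr1, a receptor of monocytes and neutrophils, was low and did not overlap, at 1.19, 1.44 and 1.08 on day 7 and 0.35, 0.16, 0.11 and 0.65 on day 14 (−0.78 ± 0.14, adjusted p = 0.0709). Among sham, day 7 and day 14 samples, only those of day 7 reached 1 FPKM for Ccr1, so its lack of overlap adds no support.

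Among checkpoint and costimulation genes, 2 of 11 tested were lower at an unadjusted p under 0.05 and 0 passed. Lag3, an inhibitory receptor of activated T cells, read 9.45, 12.7 and 5.63 FPKM on day 7 and 2.86, 10.3, 2.99 and 1.95 on day 14 (−1.05 ± 0.36, adjusted p = 0.345). Without sample 2 it differed by −1.46 ± 0.21 (adjusted p = 0.00595), and 3 of 8 genes of the list still tested passed. Without sample 3, 0 of 11 passed. Vsir, the checkpoint ligand VISTA, was at 15.1 to 20.1 and 8.10 to 16.2 (adjusted p = 0.287).

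Of 18 leukocyte adhesion and endothelial activation genes tested, 6 were lower and 1 higher at an unadjusted p under 0.05 and 0 passed, with a median of −0.25. Leaving out day 14 sample 2, 3 passed with a lower level at a median of −0.32. Leaving out sample 3, 0 passed at a median of −0.11. Icam2, an endothelial ligand of leukocyte integrins, was at 3.88 to 4.92 FPKM on day 7 and 1.77 to 3.17 on day 14 with no overlap (−0.58 ± 0.13, adjusted p = 0.162).

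Of 21 Toll-like receptor and inflammasome genes tested, 0 passed and 1 was lower at an unadjusted p under 0.05, and 18 on day 7 and 15 on day 14 were above sham. Casp1, the protease that matures interleukin-1 beta, read 5.16, 6.62 and 5.37 FPKM on day 7 and 2.75, 7.9, 2.47 and 2.57 on day 14 (−0.57 ± 0.26, adjusted p = 0.504). Here too sample 2 was the highest and the other 3 were below day 7, and the difference without it was −0.90 ± 0.12 (adjusted p = 0.00404). In the list 3 passed and 16 had an unadjusted p under 0.05 without it, at a median of −0.43. Without sample 3, 0 passed, 1 was lower at an unadjusted p under 0.05 and the median was −0.08. Of 17 ferritin and iron handling genes 6 were lower at an unadjusted p under 0.05 and 0 passed, against 3 without sample 2 and 0 without sample 3. Fth1, the ferritin heavy chain, was at 4056 to 5167 on day 7 and 4064 to 4517 on day 14 (−0.15 ± 0.08, adjusted p = 0.58), and was above sham on both days (0.49 and 0.35, adjusted p = 0.00122 and 0.00853).

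Of 27 cathepsin and lysosome genes 5 were lower at an unadjusted p under 0.05 and 0 passed, against 5 without sample 2 and 0 without sample 3. Hexa, a lysosomal hexosaminidase, read 54.6, 54.9 and 55.0 FPKM and then 49.0, 49.2, 40.2 and 45.1 (−0.26 ± 0.07, adjusted p = 0.205). Of 39 cell cycle and mitosis genes 36 had differences below 0 (57.8% of all genes had) and 2 an unadjusted p under 0.05, at a median of −0.20. Above sham were 9 on day 7 and 2 on day 14, against 14.5% and 11.9% of all genes. Without sample 2, 23 of 35 tested had a lower level at an unadjusted p under 0.05 and 2 passed, at a median of −0.39. Mcm7, a subunit of the replicative helicase, was 1 of those that passed (−0.32 ± 0.07, adjusted p = 0.0436). Without sample 3, 0 of 39 passed and 1 was lower at an unadjusted p under 0.05, at a median of −0.11. Of 15 heat shock and cold-inducible genes 4 were lower and 1 higher at an unadjusted p under 0.05. The higher one was Rbm3, a cold-inducible RNA-binding protein, at 49.9, 37.7 and 32.6 on day 7 and 57.4, 87.3, 59.7 and 47.8 on day 14 (0.63 ± 0.18, adjusted p = 0.248), above sham on both days (0.84 and 1.47, adjusted p = 0.00605 and 0.000287). In the heat shock list 1 member on day 7 and 6 on day 14 were below sham (3 without sample 2), and 2 were above it on each day. Of 20 glucocorticoid response genes 3 were lower at an unadjusted p under 0.05, where 7.01% of all genes were. Of 26 immediate early genes 2 were, near that share.

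**Figure D4:**
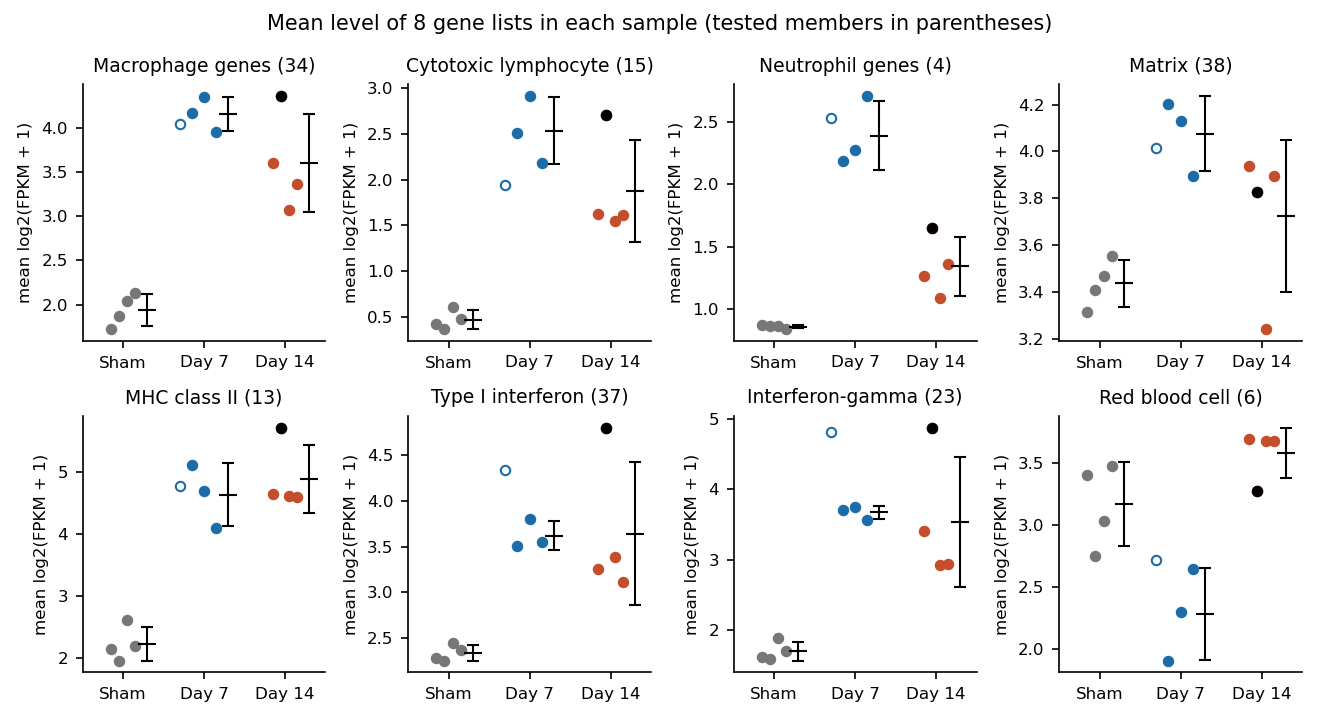
Mean log2(FPKM + 1) over the tested members of 8 lists (y axis; axes do not start at 0) in each sham, TCI day 7 and TCI day 14 sample, with the mean and 1 SD of each group as the black bar, day 7 sample 3 as the open circle and day 14 sample 2 as the black dot. Day 14 sample 2 is the highest day 14 sample in the macrophage, cytotoxic, neutrophil, MHC class II and both interferon panels and the lowest in the red blood cell panel, while sample 3 is the lowest in the matrix panel.

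Hemoglobin genes had the largest higher values on day 14. Hbb, a beta globin, read 8.28, 13.6 and 19.4 FPKM on day 7 and 81.7, 40.6, 64.3 and 56.6 on day 14, with sham at 23.5 to 44.6. All day 14 samples were above all day 7 samples, including sample 3 at 22.7 (2.09 ± 0.38, adjusted p = 0.0812). Hba2, an alpha globin, was at 6.74 to 8.57 on day 7 and 27.1 to 39.5 on day 14 (1.94 ± 0.37, adjusted p = 0.0911), and Hba1 at 10.4 to 30.0 and 58.4 to 106 (2.17 ± 0.44, adjusted p = 0.115). Of 6 red blood cell markers tested 0 passed and 4 were higher at an unadjusted p under 0.05, all of them globins, with 4 not overlapping, as did 2.79% of all genes with a higher level.

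On day 7 Hbb and Hba2 were below sham (−1.21 and −1.35, adjusted p = 0.0432 and 0.0218), and on day 14 their differences from sham were 0.88 and 0.59 (adjusted p = 0.111 and 0.271). Without day 14 sample 2, Hbb, Hba2 and Hba1 passed between the days, Hbb by 2.27 ± 0.40 (adjusted p = 0.0156). Globin genes are near-identical copies, so the division of reads between them is uncertain. How much blood remained in each ganglion was not measured and its part in the globin values was not tested.

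The other genes named with higher values on day 14 did not pass with all samples. Ciart, a repressor of the circadian clock, read 0.77, 0.63 and 1.43 FPKM on day 7 and 2.51, 3.5, 3.41 and 1.58 on day 14 (0.94 ± 0.25, adjusted p = 0.231). Cry2, a core clock repressor, read 26.5, 26.9 and 24.3 and then 29.4, 32.3, 32.7 and 28.6 (0.24 ± 0.06, adjusted p = 0.19). These were 2 of the 3 of 17 clock genes with a higher level at an unadjusted p under 0.05, and the hour of tissue collection is not given in the sources used here. Srebf1, which drives fatty acid synthesis, read 24.3, 25.8 and 24.6 and then 27.9, 46.7, 32.3 and 33.3 (0.45 ± 0.12, adjusted p = 0.223), and it passed without sample 2 (0.31 ± 0.07, adjusted p = 0.0442). Its list of 33 cholesterol and fatty acid genes had a median of −0.01 between the days. In it, 6 members on day 7 and 10 on day 14 were below sham (5 without sample 2), against 3.45% and 3.21% of all genes. Above sham were 0 and 1.

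Ager, the receptor for advanced glycation end products, was at 1.67 to 2.01 FPKM on day 7 and 2.35 to 4.33 on day 14 (0.56 ± 0.14, adjusted p = 0.21). Pou3f1, a factor of promyelinating Schwann cells, was at 1.98 to 2.89 and 3.09 to 5.13 (adjusted p = 0.32). Rem2, a small GTPase that restrains calcium channels, was at 7.36 to 10.1 and 10.5 to 14.5, the sham mean being 12.7 (adjusted p = 0.19). S100a3, a calcium-binding S100 protein, was at 5.66 to 7.83 on day 7, 9.90 to 15.9 on day 14 and 11.3 in sham (adjusted p = 0.162). The rule that named these genes took only those whose days did not overlap, so that trait adds no support. Of all genes tested, 2.79% were higher without overlap.

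Neuronal genes differed little between the days. Of 28 pan-neuronal and neurofilament genes tested 0 passed, the median was 0.04, and 6 were below sham on each day. Of all genes tested, 3.45% were below sham on day 7 and 3.21% on day 14. In this list 0 were above sham on either day, and 4 were below it on day 14 without sample 2. Nefh, the heavy neurofilament chain, was at 1821 to 1990 FPKM on day 7 and 1823 to 2034 on day 14, against a sham mean of 2329.9 (0.03 ± 0.06). Of 38 nociceptor and neuropeptide genes 0 passed, with a median of −0.02. Gal, the neuropeptide galanin that injured sensory neurons make, read 9.83, 7.42 and 7.09 and then 13.2, 17.4, 12.7 and 8.8, the sham mean being 12.7 (0.60 ± 0.24, adjusted p = 0.423). Calca, which encodes the pain peptide CGRP, was at 644 to 751 and 533 to 834 (−0.17 ± 0.13, adjusted p = 0.715).

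Ion channels, glia and metabolism gave no call between the days with all samples. Of 44 potassium, HCN and calcium channel genes tested, 4 were lower and 2 higher at an unadjusted p under 0.05. Below sham were 9 on day 7 and 5 on day 14 (2 without sample 2), and above it 4 and 2. Hcn4, a pacemaker channel, was at 3.29 to 3.46 FPKM on day 7 and 2.34 to 3.14 on day 14 (−0.25 ± 0.07, adjusted p = 0.257). Cacna2d1, the calcium channel subunit bound by gabapentin, was at 19.2 to 21.4 and 21.4 to 25.5 (0.19 ± 0.07, adjusted p = 0.392). Satellite glia genes had 3 of 17 lower at an unadjusted p under 0.05, among them Gja1, the gap junction protein connexin 43, at 11.2 to 12.2 and 7.75 to 10.7 (−0.35 ± 0.10, adjusted p = 0.224). In that list 1 member on day 7 and 5 on day 14 were below sham (2 without sample 2), and 3 and 1 were above it. The median difference of 59 respiratory chain subunits was −0.02, with 0 members under an unadjusted p of 0.05.

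Markers of other tissues gave no call with all samples. Of 14 epithelial and tumor-cell markers 5 were tested, with 0 under an unadjusted p of 0.05 and a median of −0.02. Krt8 and Krt19, keratins of simple epithelia, were at 3.98 to 5.80 and 1.23 to 2.36 FPKM on day 7 and at 3.45 to 6.69 and 1.10 to 3.60 on day 14. Of 30 skeletal muscle markers 12 were tested, with a median of 0.01, and of 13 spinal cord markers 2. The mean level of those 2 was 2.91 to 3.04 on day 7 and 2.43 to 2.88 on day 14, with no overlap and with 0 members at an unadjusted p under 0.05.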

How the data were processed

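RNA-seq of rat DRGs was deposited as 1 table per sample. Per the labels and the study's methods, total RNA was extracted with Trizol. The methods name the BGISEQ-500 platform, HISAT and Bowtie2 for alignment and RSEM for quantification, while the labels name Illumina library protocols and the submitters' processing notes list CASAVA 1.4 and Bowtie2. Genome build and annotation are not given in the sources used here. The authors deposited FPKM values, normalized to transcript length and mapped fragments; they hold no counts, so depth is unknown and no counting interval is given.

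Genes were kept at 1 FPKM or more in at least 3 of 14 samples. Sham 1–4, TCI day 1 samples 1, 3 and 4, TCI day 7 samples 1, 2 and 4 and TCI day 14 samples 1–4 entered one limma 3.58.1 fit (R 4.3.3; lmFit, eBayes with trend) on log2(FPKM + 1), with a mean per group and Benjamini-Hochberg adjustment over 14023 genes. Day 7 sample 3 and day 1 sample 2 were left out as in the study. The script was tested on simulated data.

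The comparison, the members and the 47 lists were chosen with earlier results of these data known. Named genes were those past the study's cut-offs, the 15 with the largest difference per direction (unadjusted p under 0.05, no overlap, an average of 2 FPKM or more where higher, a symbol listed once and not a placeholder), up to 4 members per list with the smallest p, and the 2 most abundant members of each list (written for lists that persisted, applied to all). No set test was run. Of 1258 symbols in the lists, 1246 were found. The 34 symbols listed more than once were kept apart by gene ID, and 19220 IDs matched the RefSeq table. No pair of samples shared more than 2.59% identical values. Alternatives were other samples in the fit, no trend, quantile normalization, median centring, no filter on low values, a floor of 5 FPKM on the mean, 0.1 in place of 1 as pseudocount, a replicate block, array quality weights and leaving out each replicate. Values of some list members are not reported here.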

Additional observations from a re-analysis of the deposited data

Results flagged for a closer look

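Within the 4 day 14 samples, the gap between the most extreme sample and its nearest neighbour was set against the whole range (Dixon's test for 4 samples). Of 82 groups of values tested, 13 exceeded the limit of that test, which chance alone exceeds in about 1 in 20 independent groups. The 82 were 35 single genes and gene lists, some with shared members, all read from the same 4 rats. They are not independent, so 13 of 82 cannot be set against that rate. Sample 2 was extreme in 9 of the 13. Its mean log2(FPKM + 1) was 2.62 over T cell receptor and lineage genes, 2.71 over cytotoxic lymphocyte genes, 4.8 over type I interferon-stimulated genes, 5.72 over the MHC class II pathway and 3.52 over checkpoint and costimulation genes, each the highest of its group. It was the lowest over red blood cell markers (3.28) and over epithelial and tumor-cell markers (2.71). Among single genes sample 2 was the highest for Pla2g2d (23.4 FPKM) and Csf3r (1.31 FPKM).

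Sample 3 of day 14 was the lowest over matrix and matrix-remodelling genes (3.24), meninges and fibroblast markers (3.54) and endothelial and mural markers (2.78). Sample 1 was the highest over skeletal muscle markers (2.46). Outside the samples compared, sample 3 of day 7 had a mean of 8.38 over 30 muscle markers, where the other day 7 samples lay at 1.02 to 1.14 and sham samples 1 to 3 at 0.92 to 0.94, with sham sample 4 at 3.42.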

How the results depend on the processing

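The 0 genes higher at the study's cut-offs stayed 0 in all 17 alternatives. The 2 lower ones were 1 with all 16 samples and 0 with only the day 7 and day 14 samples, with a 5 FPKM floor and with 0.1 as pseudocount, and 0 to 2 when a replicate was left out (1 without day 7 sample 1, 0 without day 7 sample 2 or 4). Pla2g2a and Gzma were not tested with that floor or without a day 7 sample, so any gene counted there was another one. At an adjusted p of 0.05 the 13 lower genes became 5 with all 16 samples, 3 with only the 2 days, 22 without a filter, 1 with that floor, 4 with that pseudocount and 49 with array weights. The 1 higher gene became 3 without a filter, 0 with that floor, 0 with that pseudocount and 4 with array weights. Leaving out a replicate gave 2 to 178 lower and 0 to 11 higher genes: the lower count was 178 without day 14 sample 2, 27 without sample 4, 6 without sample 1 and 5 without sample 3, and 4 and 2 without day 7 samples 1 and 2; the higher count was 11 without day 14 sample 2 and 0 without any 1 of the day 7 samples or without day 14 sample 1. The causes were not tested beyond the samples and genes each alternative removes. Same-numbered samples of the 2 days correlated at 0.098, 0.269 and 0.046 in their deviations. Day 7 sample 2 correlated best with its own number, and day 7 samples 1 and 4 with another (0.149 and 0.41). With so few samples these values cannot decide whether the number pairs them. With a replicate block 4 genes were lower and 0 higher. Without read depth, low genes such as Gzma rest on an unknown number of reads.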
